A study of Mus musculus with 2 samples.

Results

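Iron uptake and storage were followed through 8 genes, taken by symbol from the 32285 listed genes: Tfrc, Slc11a2, Fth1, Ftl1, Ncoa4, Slc40a1, Ireb2 and Aco1. All 8 were found. The set was chosen by symbol, with earlier results on the levels of these genes in these same cells in view, so its levels, ratios and co-variation are given as a description. E14 cells, a mouse embryonic stem cell line of 129/Ola background, had been cultured in serum with leukaemia inhibitory factor. Cells received either Son siRNA or control siRNA with Lipofectamine2000 a day after seeding. On the following day both groups were collected and stored frozen, and thawed cells were sorted by 7-AAD, a dye that enters dead cells. SON is a protein of nuclear speckles that takes part in splicing. The libraries are called control and sonKD, with 1 library each.

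With a single library per condition, the knockdown and any difference between preparations cannot be told apart, and no test or p-value is given. A barcode counted as a cell from 2500 UMIs and 1000 genes upward if no more than 10% of its UMIs were mitochondrial. A UMI (unique molecular identifier) marks 1 captured molecule. This left 4978 control cells with a median of 7737.5 UMIs and 2731 sonKD cells with a median of 11612 UMIs. Barcodes at cell depth set aside for over 10% mitochondrial UMIs made up 11.2% in control and 27.9% in sonKD, and ribosomal protein genes took 20.7% and 24.1% of the UMIs of cells. Only 2 cell barcodes occurred in both libraries. Levels are given in CPM, the UMIs of a gene scaled to a common total per library, with 95% intervals that cover counting error only. The siRNA target Son had 169 CPM in the control library and 106 CPM in the sonKD library, which is 62.7% of control (60.2 to 65.4). All 10 pluripotent stem cell markers were at 10 CPM or more in each library, and Pou5f1 was at 1104 and 916 CPM. The 10 erythroid markers summed to 2.20 and 2.00 CPM, with Hbb-bs and Hbb-bt at 0 in both libraries. The 8 fibroblast markers summed to 4.60 and 4.71 CPM, the 8 macrophage markers to 0.636 and 0.562 CPM, and the 8 primitive endoderm markers to 44.1 and 35.3 CPM.

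Cells take up iron bound to transferrin through the transferrin receptor, move it out of endosomes with a divalent metal transporter, and store the surplus inside ferritin, a shell of heavy and light chains. Ferritin is carried to the lysosome by a cargo receptor, and ferroportin exports iron. The iron regulatory proteins, when iron is low, bind a hairpin called the iron-responsive element (IRE). Binding in a 5′ UTR blocks translation, as for ferritin, and binding in a 3′ UTR protects the RNA from decay, as for the transferrin receptor.

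The IREs are shown because the matches found lie in the 5′ UTR of some members and in the 3′ UTR of Tfrc. Sites were sought in GENCODE M21 transcripts (GRCm38) as a C, then 5 bases, the loop CAGTGN, and 5 bases pairing with the first 5 (G-T pairs allowed), on the transcript strand. All coordinates are GRCm38. Capitals mark the unpaired C and the loop.
Fth1, 5′ UTR, chr19:9982733-9982759, plus strand: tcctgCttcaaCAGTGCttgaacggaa
Ftl1, 5′ UTR, chr7:45459780-45459806, minus strand: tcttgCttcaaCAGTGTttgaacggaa
Slc40a1, 5′ UTR, chr1:45925466-45925492, minus strand: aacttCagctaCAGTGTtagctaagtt
Tfrc site 1, 3′ UTR, chr16:32631220-32631246, plus strand: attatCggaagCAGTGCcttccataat
Tfrc site 2, 3′ UTR, chr16:32631599-32631625, plus strand: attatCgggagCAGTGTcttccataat
Tfrc site 3, 3′ UTR, chr16:32631664-32631690, plus strand: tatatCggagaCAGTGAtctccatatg
Tfrc site 4, 3′ UTR, chr16:32631711-32631737, plus strand: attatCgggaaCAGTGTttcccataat

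Such a match was found in 4 of the 8 members, counting only the transcript of each with the longest coding sequence. Counting any transcript of a gene, it was found in 1.68% of the 21901 genes with a protein-coding transcript. The shares are thus not comparable, and the members include genes known for this control. All 4 Tfrc matches lay in exon 19, the last. The Fth1 match began at base 659 of the transcript used, in exon 2 of 5. Those of Ftl1 and Slc40a1 began at bases 79 and 91, in exon 1. Distance from the 5′ end was not part of the search. For a member, no match means only that this pattern was not in that single transcript. Other transcripts of the gene, or sites that depart from the pattern, are not covered.

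Tfrc, the transferrin receptor (ENSMUSG00000022797, chromosome 16, 32608920 to 32632794, 19 exons), was lower in the sonKD library. The control library held 5995 Tfrc UMIs, or 147 CPM (143 to 150.3), and the sonKD library held 3393, or 106 CPM (102 to 109.5). The intervals did not overlap. The log2 ratio of sonKD over control was -0.47 (-0.53 to -0.41), which is 72.3% of the control level. The ratio lay at percentile 2.90 of the 8063 genes that averaged 10 CPM or more, whose median was -0.12. In cells thinned to 4000 UMIs each, 41.5% of the 4710 from control had a Tfrc UMI (40.1 to 43.0), as did 34.2% of the 2622 from sonKD (32.4 to 36.1). Unthinned, at unequal depth, these shares were 61.8% and 64.0%, from which no order is read. In near-empty droplets, at median depths of 305 and 296 UMIs, they were 2.07% and 1.60%.

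Slc11a2, the divalent metal transporter (chromosome 15, 100387898 to 100425072), was a rare transcript. Control held 285 UMIs, or 6.97 CPM (6.18 to 7.83), and sonKD 178 UMIs, or 5.56 CPM (4.77 to 6.44), with overlapping intervals. The log2 ratio was -0.33, with an interval of -0.60 to -0.05 that reached close to 0. Thinned cells with a UMI made up 2.48% of control and 2.21% of sonKD, and the intervals of these shares overlapped too.

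**Figure D1:**
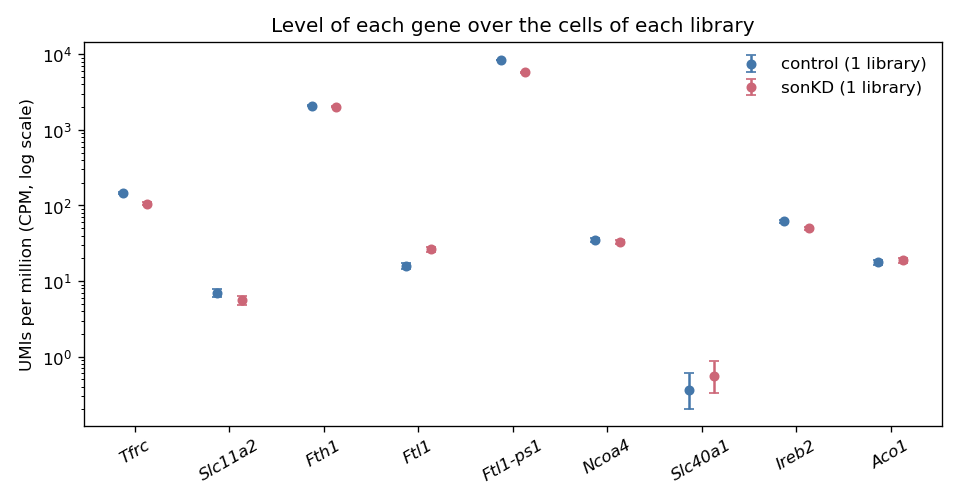
Level of each gene in CPM (log axis) over the cells of the control and the sonKD library, with 95% Poisson intervals. Each point is 1 library. Tfrc and Ftl1-ps1 are lower in sonKD, Ftl1 is higher, and the 2 points of Fth1, Ncoa4 and Aco1 lie close together.

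Fth1, the heavy chain that carries the ferroxidase activity of ferritin (ENSMUSG00000024661, chromosome 19, 9980598 to 9985098), differed little between the libraries. Control held 85996 UMIs, or 2102 CPM (2088 to 2117), and sonKD 64915 UMIs, or 2027 CPM (2011 to 2042). The log2 ratio of -0.05 (-0.07 to -0.04) was above the median of all genes. No direction is given, because the value was 0.04 with TMM factors and positive under 2 other scalings. The median thinned cell held 8 Fth1 UMIs in either library, and the 5th and 95th percentiles were 3 and 16 in both. Part of the Fth1 count depends on read assignment, since 22.6% of the 31-base windows in the last 500 bases of its transcript also occur in another gene.

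Ftl1, the light chain, which aids formation of the iron core (ENSMUSG00000050708, chromosome 7, 45457944 to 45459884), had 648 UMIs in control, or 15.8 CPM (14.6 to 17.1), and 838 in sonKD, or 26.2 CPM (24.4 to 28.0). Taken alone, the row had a log2 ratio of 0.72 (0.57 to 0.87), at percentile 99.5 of all genes. The retrogene Ftl1-ps1 (ENSMUSG00000062382, chromosome 13, 74399694 to 74407346), a copy with a single-exon transcript that was added here after its values were seen, held 344712 UMIs in control and 184744 in sonKD. Its transcript differs from that of Ftl1 at 4 of 910 aligned bases, 3 of them in the last 300 bases of Ftl1. It also carries the IRE of Ftl1 letter for letter:
Ftl1-ps1, 5′ UTR, chr13:74406429-74406455, plus strand: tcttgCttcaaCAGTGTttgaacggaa

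Of the UMIs in the Ftl1 and Ftl1-ps1 rows together, 99.8% were in the Ftl1-ps1 row in control and 99.5% in sonKD. How reads that match both copies were assigned is not given in the sources used here. For this reason the ratio of the Ftl1 row alone says little of light chain RNA, and the sum of both rows is given beside it. Ftl1-ps1 alone had 8428 CPM in control, with an interval of 8399 to 8456, and 5767 CPM in sonKD, with an interval of 5741 to 5794. The summed light chain rows were at 8443 and 5794 CPM, a log2 ratio of -0.54 (-0.55 to -0.53), which is 68.6% of control and lies on the other side of 0 from the Ftl1 row. The share of light chain UMIs in the Ftl1 row itself was 0.188% in control (0.173 to 0.203) and 0.452% in sonKD (0.422 to 0.483).

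Ncoa4, the cargo receptor that carries ferritin to the lysosome (chromosome 14, 32159865 to 32179855), had 1429 UMIs in control, or 34.9 CPM (33.1 to 36.8), and 1068 in sonKD, or 33.3 CPM (31.4 to 35.4), with overlapping intervals. The log2 ratio was -0.07 (-0.18 to 0.05), so a difference was not detectable at this depth. Slc40a1, ferroportin, the iron exporter (chromosome 1, 45908068 to 45926523), was barely detected, with 15 UMIs over all control cells and 18 over all sonKD cells. In CPM these were 0.367, with an interval of 0.205 to 0.605, and 0.562, with one of 0.333 to 0.888. The log2 ratio of 0.62 had an interval of -0.46 to 1.71, which spans both directions. Without thinning, 14 control cells and 17 sonKD cells held a Slc40a1 UMI.

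Ireb2 and Aco1 encode the IRE-binding proteins IRP2 and IRP1, the latter also the cytosolic aconitase when it holds an iron-sulfur cluster. Ireb2 (chromosome 9, 54863789 to 54912530) had 2511 UMIs in control, or 61.4 CPM (59.0 to 63.8), and 1594 in sonKD, or 49.8 CPM (47.3 to 52.3). The intervals did not overlap, and the log2 ratio was -0.30 (-0.39 to -0.21), or 1.23-fold lower. Aco1 (chromosome 4, 40143081 to 40198338) had 725 UMIs in control, or 17.7 CPM (16.5 to 19.1), and 605 in sonKD, or 18.9 CPM (17.4 to 20.5). Its intervals overlapped, and the log2 ratio of 0.09 (-0.07 to 0.25) did not exclude 0. Thinned cells with an Ireb2 UMI made up 20.8% of control (19.7 to 22.0) and 18.3% of sonKD (16.9 to 19.9), with intervals that overlapped slightly. Those with an Aco1 UMI made up 6.52% and 6.98%, also with overlapping intervals.

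**Figure D2:**
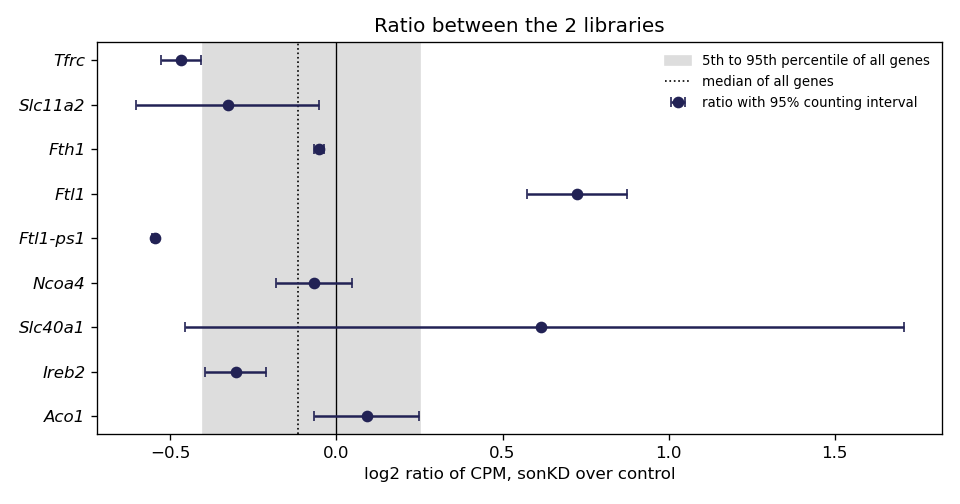
Log2 ratio of CPM, sonKD over control, with 95% counting intervals. The grey band spans the 5th to 95th percentile of the 8063 genes at 10 CPM or more (-0.40 to 0.25) and the dotted line is their median. Tfrc (-0.47) and Ftl1-ps1 (-0.55) lie left of the band and Ftl1 (0.72) lies right of it. The point of Slc40a1 (0.62) also lies right of the band, with an interval of -0.46 to 1.71 that spans it.

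A log2 ratio of 0.32 or more in size was used to sort the genes. By it, 2 of the 8 members were higher in sonKD (Ftl1 and Slc40a1), 2 were lower (Tfrc and Slc11a2) and 4 passed in neither direction. With the summed light chain rows (-0.54) in place of the Ftl1 row, 1 was higher and 3 were lower. Among all genes at 10 CPM or more, 3.5% were past that ratio on the higher side, 10.2% on the lower side and 13.7% in all. Slc11a2 and Slc40a1 lie below that level, and without it, over genes with 1 UMI or more in each library, 39.0% of genes were past the ratio, so 4 of 8 is not read against the smaller share. With TMM factors 2 of the 8 members were higher and 1 lower (1 and 2 with the summed light chain rows). The shares of all genes at 10 CPM or more were then 5.57% higher and 4.60% lower. With the first scaling, 1 of the 6 members at 10 CPM or more was past the ratio upward (Ftl1) and 1 downward (Tfrc). Their median log2 ratio was -0.06. With the summed light chain rows these counts were 0 and 2, and the median was -0.19. Slc11a2 lay just past the threshold, while Ireb2, at -0.30, lay just inside it.

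Tfrc was set against ferritin within each library, which does not depend on how the libraries are scaled. Tfrc had 69.2 UMIs per 1000 UMIs of Fth1 plus Ftl1 in control and 51.6 in sonKD, a log2 ratio of -0.42 (-0.49 to -0.36). The denominator is almost entirely Fth1. Once the Ftl1-ps1 row was counted as ferritin, Tfrc had 13.9 UMIs per 1000 in control and 13.5 in sonKD. The log2 ratio was then -0.04, with an interval of -0.10 to 0.02 that included 0. The 3 ferritin rows together were at 74.2% of control in sonKD, beside 72.3% for Tfrc and 96.4% for Fth1 alone.

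Over single cells the relation between Tfrc and ferritin was weak. In 4710 thinned control cells Pearson's r of log2 UMIs (plus 1) between Tfrc and Fth1 plus Ftl1 was -0.07 and Spearman's rho was -0.06. In 2622 sonKD cells they were -0.08 and -0.07. With Ftl1-ps1 counted, r was -0.09 in control and -0.08 in sonKD. Tfrc averaged only 0.589 and 0.432 UMIs per thinned cell, so r this small is a description of sparse counts and not a finding. All genes of a thinned cell also share a fixed total. With mitochondrial and ribosomal protein shares and cell cycle sums held constant, r was -0.01 in control and -0.04 in sonKD.

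Cells were also ordered by Fth1 plus Ftl1 and divided into 5 groups of like size. Control cells had a mean of 0.687 Tfrc UMIs in the group lowest in ferritin (0.635 to 0.742) and 0.522 in the highest (0.477 to 0.571). The sonKD cells had 0.495 (0.437 to 0.559) and 0.365 (0.315 to 0.420). Mean Fth1 in these groups went from 3.68 to 14.8 UMIs in control and from 3.35 to 15.2 in sonKD. The ribosomal protein share moved with this order, from 19.9% to 22.1% in control and from 23.4% to 25.9% in sonKD. Its part in the difference was not tested.

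**Figure D3:**
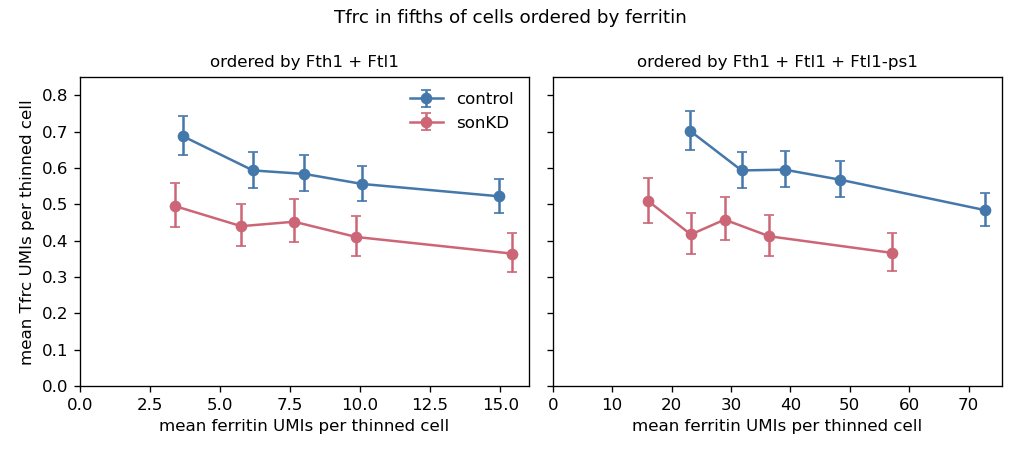
Mean Tfrc UMIs per cell thinned to 4000 UMIs, in 5 groups of the cells of each library ordered by ferritin UMIs, with 95% Poisson intervals. The left panel orders cells by Fth1 plus Ftl1 and the right panel adds Ftl1-ps1. Tfrc is highest in the group lowest in ferritin in both panels (0.687 in control and 0.495 in sonKD at left), and control lies above sonKD.

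Among the 28 pairs of members, r ran from -0.07 to 0.08 in control and from -0.08 to 0.11 in sonKD, with medians of -0.0027 and 0.00082. Both upper ends were the pair of ferritin chains, Fth1 with Ftl1. For Fth1 with the Ftl1-ps1 row, r was 0.43 in control and 0.47 in sonKD. These are not comparable with the r of the Ftl1 row, since Ftl1-ps1 averaged 34.4 and 23.9 UMIs per thinned cell and Ftl1 0.0667 and 0.113, and so sparse a row can give only a small r. Fth1 and Ftl1-ps1 also shared an inverse relation with the number of genes found in a thinned cell. That r was -0.32 and -0.45 in control and -0.35 and -0.48 in sonKD. With the ribosomal protein share it was 0.26 and 0.37 in control and 0.28 and 0.40 in sonKD.

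Fth1 varied between cells beyond its counting error. Its squared coefficient of variation minus the Poisson part was 0.135 in control and 0.180 in sonKD, against medians of 0.0356 and 0.0349 over 89 genes with a control mean within 2-fold of it. Ftl1-ps1 had 0.224 and 0.264. For Tfrc the excess was 0.318 and 0.170. The other members were too sparse for this measure, at means of 0.238 UMI per thinned cell or less.

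Genes among the 5 most like Fth1 plus Ftl1 over cells, out of the 1202 that averaged 0.5 UMI or more per thinned cell in both libraries, were Ftl1-ps1 (r = 0.43 in control and 0.48 in sonKD), Apoe (0.25 and 0.24) and Prdx1 (0.22 and 0.18). Apoe encodes a lipid carrier and Prdx1 a peroxiredoxin. The least like were Prrc2c (-0.18 in both), Malat1 (-0.17 and -0.15), Tdgf1 (-0.15 and -0.16), Ncl (-0.15 and -0.22) and Parp1 (-0.14 and -0.19). For Tfrc the highest values were smaller: Akap12 (0.09 in both), Prrc2c (0.12 and 0.09), Hspd1 (0.08 in both), Tpr (0.08 in both) and Ncl (0.09 and 0.07). The lowest for Tfrc were the ribosomal protein genes Rpl32 (-0.10 and -0.12), Rpl13 (-0.13 and -0.10), Rpl14 (-0.11 and -0.09), Rpl28 (-0.09 in both) and Rps20 (-0.09 and -0.11). Prrc2c and Ncl appear in the top 5 for Tfrc and in the bottom 5 for ferritin. Thinned cells of a library share its chemistry and a fixed total, and values this small for Tfrc are no finding.

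Members were also measured in barcodes that are not cells by these limits. In droplets with 100 to 500 UMIs, which hold mostly free RNA, Tfrc was at 68.5 and 54.3 CPM (control and sonKD), below its level in cells. Fth1 was at 3216 and 3171 CPM there and Ftl1-ps1 at 11804 and 8503 CPM, above their levels in cells. Per UMI, free RNA held more Fth1 and less Tfrc than cells in both libraries. No cell type without ferritin was at hand as a background. A Fth1 UMI was found in 62.3% of these control droplets, whose median depth was 305 UMIs, and in 99.9% of thinned control cells at 4000 UMIs. For Ireb2 the free RNA held 19.6 and 11.5 CPM, for Ncoa4 13.6 and 12.4 CPM, and for Aco1 8.99 and 6.97 CPM, all below the level in cells.

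In barcodes at cell depth with over 10% mitochondrial UMIs, 625 in control and 1056 in sonKD, Tfrc had 213 CPM in control, with an interval of 193 to 234, and 149.9 CPM in sonKD, with an interval of 138 to 163. The log2 ratio was -0.50 (-0.69 to -0.32), against -0.47 in cells. Fth1 was at 1088 and 1255 CPM and Ftl1-ps1 at 4109 and 3127 CPM, all below the level in cells. Tfrc was lower in sonKD in all 3 classes of barcodes.

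**Figure D4:**
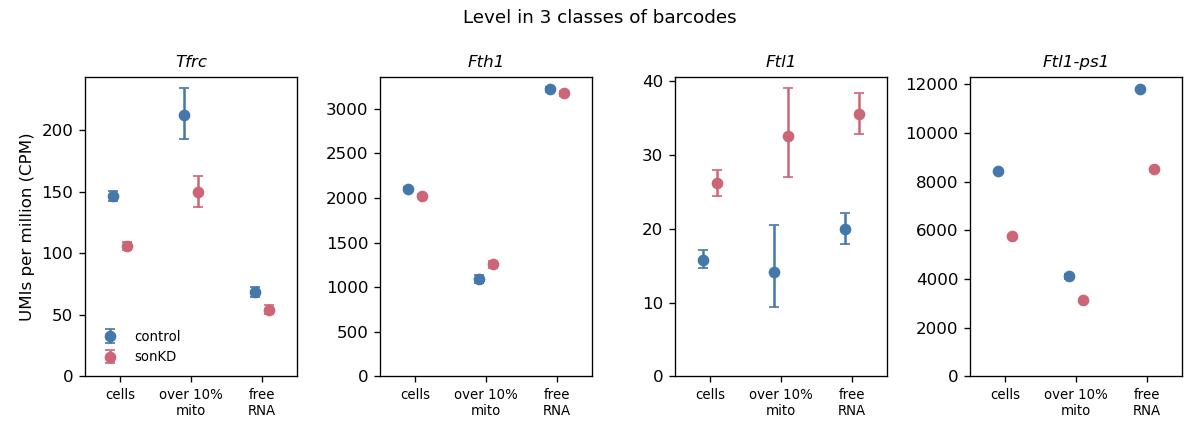
Level in CPM (linear axes from 0, a separate scale per gene) in cells, in barcodes at cell depth with over 10% mitochondrial UMIs, and in near-empty droplets, with 95% Poisson intervals. Tfrc is lowest in free RNA (68.5 and 54.3 CPM), whereas Fth1 and Ftl1-ps1 are highest there.

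The wider iron pathway was read from 9 lists whose genes, counted once, gave 81 at 10 CPM or more. Of these, 7 (8.64%) were past the threshold on the higher side in sonKD and 3 (3.70%) on the lower side, against 3.5% and 10.2% of all genes. The contrast depends on the scaling and on the Ftl1 row. With TMM factors 9 were higher (11.1%) and 3 lower (3.70%), against 5.57% and 4.60% of all genes. With the summed light chain rows and the first scaling, 6 were higher and 4 lower. The median log2 ratio of the 81 genes was -0.06, against -0.12 for all genes. Lists overlap, and the members are among them.

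The single lists are short, and their counts are a description only. Beside them, 3.5% of all genes at 10 CPM or more were past the threshold upward and 10.2% downward. Among IRE-bearing transcripts, 6 of 12 were at 10 CPM, with 1 higher (Ftl1), 1 lower (Tfrc) and a median of -0.26. With the summed light chain rows, 0 were higher and 2 lower. Of the IRE-binding proteins and iron-sensing regulators, 9 of 9 were at 10 CPM or more and 0 were past the threshold (1 with TMM factors, upward). Rbx1, a subunit of the ligase that removes IRP2, was farthest from the median, at 399 CPM and 478 CPM and a log2 ratio of 0.26 (0.23 to 0.29). For import and reduction, 6 of 19 were at 10 CPM and Tfrc alone passed, downward. Steap2, a metalloreductase, was at 11.8 and 12.5 CPM, a ratio of 0.07 (-0.12 to 0.27). Of the ferritin, iron chaperone and ferritinophagy list, 15 of 16 were at 10 CPM or more, and Ftl1 and Bola2 passed upward. With the summed light chain rows, Bola2 passed upward and the light chain downward. Bola2, a cytosolic partner of glutaredoxin in iron-sulfur transfer, was at 90.8 and 126 CPM, a ratio of 0.47 (0.41 to 0.54). Export left 1 of 11 genes, Abcg2, a porphyrin exporter, at a ratio of -0.14 (-0.22 to -0.07).

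Of the mitochondrial iron and iron-sulfur genes, 18 of 24 were at 10 CPM or more, with 3 higher, 1 lower and a median of -0.0070. Of all genes at that level, 3.5% were past the threshold upward and 10.2% downward. Counts in lists this short are a description only. Iscu, the assembly scaffold, was at 57.6 and 79.9 CPM, a ratio of 0.47 (0.39 to 0.55). Bola3, which helps hand on the cluster, was at 55.4 and 70.4 CPM, a ratio of 0.35 (0.26 to 0.43). The others of the 18 past the threshold, named after their values were seen, were Hscb, a co-chaperone, at 0.34, and Fdxr, a reductase, at -0.50. In the cytosolic assembly list, 8 of 8 were at 10 CPM or more. Ciao2b passed upward at 0.33 (0.26 to 0.39), while its partner Ciao1 was at 0.16 (0.06 to 0.26). Of 15 heme genes, 12 were at 10 CPM or more. Blvrb, a biliverdin reductase, was the only one of the 12 past the threshold, at 106 and 78.5 CPM. Its ratio was -0.44 (-0.51 to -0.36), and Hmox1, which breaks down heme, was at 0.14 (0.07 to 0.21). Of 16 targets of NRF2, the oxidative stress factor, 14 were at 10 CPM or more. Their median was 0.03, against -0.12 for all genes, with 0 lower and 2 higher. Ftl1 was one of these, and Srxn1, sulfiredoxin, was the other, at 0.41 (0.27 to 0.55). With the summed light chain rows the list had 1 higher and 1 lower.

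**Figure D5:**
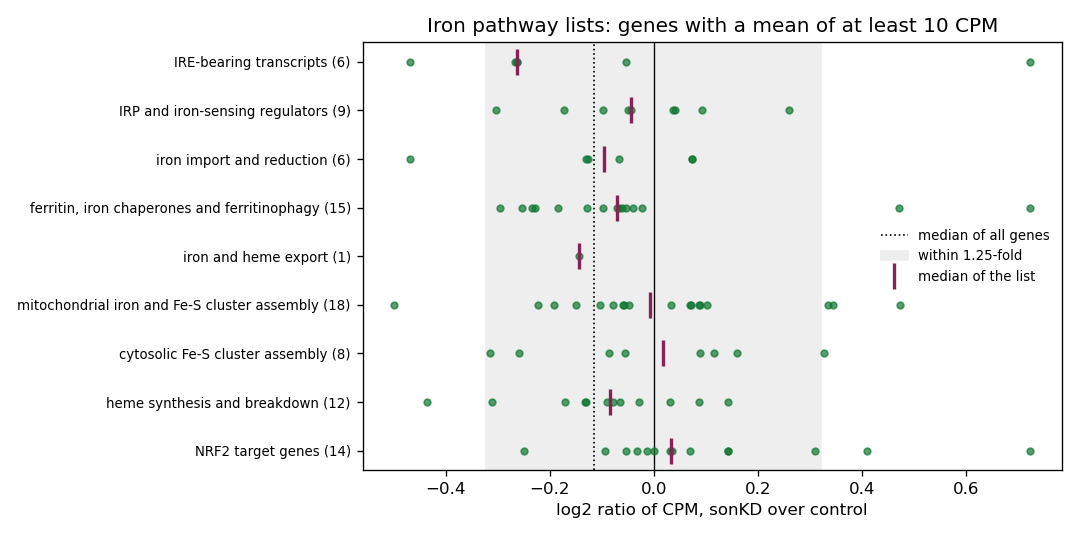
Log2 ratio of CPM, sonKD over control, for each gene at 10 CPM or more in the 9 iron pathway lists (number of genes in brackets). Upright bars are list medians, the dotted line is the median of all genes, and the grey band marks ratios within 0.32 of 0. Most genes lie inside the band, and Ftl1 and Tfrc are the outer points of the top list.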

How the data were processed

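Each library, 1 control and 1 sonKD, was a 10x 3′ single-cell preparation. The authors deposited raw UMI counts per gene and barcode, made with Cell Ranger 7.1.0 on mm10, per the submitters' processing notes. The annotation, the handling of intronic reads and of reads that match several genes are not given in the sources used here.

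From the deposited counts, barcodes with at least 2500 UMIs, at least 1000 genes and no more than 10% mitochondrial UMIs were kept (40902904 UMIs in control and 32032551 in sonKD). Their counts were summed per library and divided by the total. Intervals are 95%, exact Poisson for levels, exact Clopper-Pearson for shares and conditional binomial for ratios, and cover counting error only. With 1 sample a group there was no test. Correlations used log2 of counts plus 1 in cells thinned to 4000 UMIs, leaving out 268 control and 109 sonKD cells. Doublets were not removed: Scrublet (scanpy 1.11.5) called 0.0603% and 0.403%, too few to be informative, so leaving out the 198 and 60 highest scores was an alternative. TMM (edgeR 4.0.16) and median-of-ratios (DESeq2 1.42.0) factors served as scaling alternatives only. The calculations were tested on simulated data.

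The members and lists were chosen with earlier results of these data known. Named genes were the members, Son, Pou5f1, the 2 genes farthest from the median of all genes in each iron list, and the 5 most and 5 least like Tfrc and ferritin. Some of the genes most like ferritin are not reported here. Ftl1-ps1 was also named after its values were seen. IRE sites of members and Ftl1-ps1 were read from a single GENCODE M21 transcript per gene, the one with the longest coding sequence, on GRCm38.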

Additional observations from a re-analysis of the deposited data

Results flagged for a closer look

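The values here come from barcodes outside the cells compared above. Those flagged were higher in sonKD, and lower values are given beside them. In barcodes at cell depth with over 10% mitochondrial UMIs, Fth1 was higher in sonKD, with a log2 ratio of 0.21 (95% counting interval 0.13 to 0.28), against -0.05 in cells. In the same barcodes the Ftl1 row had a ratio of 1.20 (0.60 to 1.85), from 28 UMIs in control and 119 in sonKD. Ncoa4 was at -0.82 there (-1.33 to -0.30), from 65 and 68 UMIs, against -0.07 in cells. In the free RNA of near-empty droplets the Ftl1 row had a ratio of 0.83 (0.64 to 1.02), from 367 and 663 UMIs. Lower there, beside Tfrc, were Slc11a2 at -0.90 (-1.47 to -0.35) and Ireb2 at -0.77 (-1.02 to -0.52), against -0.33 and -0.30 in cells. Aco1 was at -0.37 there (-0.71 to -0.03), against 0.09 in cells. The light chain rows summed with Ftl1-ps1 were at -0.38 and -0.47 in these 2 classes of barcodes. Each value rests on 1 library per group.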

How the results depend on the processing

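No paired analysis was possible because each group held 1 library, and for the same reason no replicate could be left out. Scaling moved the median of all genes by at most 0.09. With TMM factors, median-of-ratios factors and a total without mitochondrial and ribosomal protein genes, the Tfrc ratio was -0.38, -0.38 and -0.39. The Fth1 ratio turned to 0.037, 0.032 and 0.020. In the same order, Slc11a2 was at -0.236, -0.241 and -0.253, and Ireb2 at -0.213, -0.218 and -0.229. In cells of 5000 to 12000 UMIs, an alternative chosen after seeing the data (4007 control and 1333 sonKD cells), Tfrc was at -0.55, Slc11a2 at -0.56, Ireb2 at -0.34, Fth1 at 0.033 and Tfrc per ferritin UMI at -0.59. Fth1 was at -0.038 from 5000 UMIs upward, at -0.071 with at most 5% and -0.074 with at most 25% mitochondrial UMIs. Ftl1 summed with Ftl1-ps1, also added later, turned to -0.54, and Tfrc per ferritin with Ftl1-ps1 was at -0.037. In all, 85 of 97 recomputed member ratios stayed within the counting interval of their first value. The rest, 7 outside it and 5 with the other sign, were all of Tfrc, Fth1 or the summed Ftl1 row. A wide interval, as for Slc40a1 (-0.46 to 1.71), is not easily left, so the pooled count says little of Tfrc and Fth1. The cause of each move was not tested.

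Members past the threshold upward went from 2 to 1 with a pseudocount of 1 CPM, and to 1 with the summed light chain rows. Members past it downward went from 2 to 0 at 1.5-fold. They went to 1 with each other scaling, ratios minus the median, the mean of CPM per cell, the pseudocount, free RNA subtracted, or a mitochondrial limit of 5% or 25%. They went to 3 in cells of 5000 to 12000 UMIs, where Ireb2 passed, and to 3 with the summed light chain rows. The share of all genes past the threshold was 39.0% when 1 UMI per library sufficed. The control r of Tfrc with ferritin was -0.036 at no more than 5% mitochondrial UMIs, -0.098 unthinned and -0.013 as a partial r. The sonKD r was -0.025 from 5000 UMIs upward, -0.028 without the deepest 5% of cells and -0.024 in cells of 5000 to 12000 UMIs. It was -0.034 thinned to 8000 UMIs, -0.040 as a partial r and -0.116 unthinned. Depth limits Slc40a1 and Slc11a2 most.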

Other observations

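With the summed S phase genes, r over single cells was -0.18 in control and -0.27 in sonKD for Fth1 and -0.28 in both for Ftl1-ps1. The r of these rows with ribosomal protein share and with genes per cell, given above, were as large or larger in size. For Tfrc the r with S phase genes were 0.10 and 0.09, too small in sparse counts to be a finding. These r are over 4710 and 2622 thinned cells that share a library and a fixed total, and no test was made. Son and the 3 ferritin rows together had r = -0.04 in control and -0.16 in sonKD, and whether the libraries differ in this was not tested.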
